A study of Mus musculus with 12 samples.

Results

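The genes described here are 9 that make heme or carry iron across the cell membrane: Alas1, Alad, Uros, Urod, Cpox, Ppox and Fech of heme synthesis, and the iron transporters Tfrc and Slc40a1. They were chosen by name as the genes of these steps that had a probe set annotated to 1 symbol, and they are 9 of the 22180 genes measured. Alas2, the erythroid form of the first enzyme, shared its probe set with another gene and was not analysed here. Slc40a1 exports iron, so the group covers both directions of iron transport and not uptake alone.

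RNA of brown adipose tissue from 10-week-old male mice was hybridised to 12 arrays, 3 in each of 4 groups. The groups came from wild-type mice (WT) and mice lacking Zbtb7b (knockout, KO), on standard chow, at an ambient 22 °C (room temperature, RT) or after 4 h at 4 °C (cold). Zbtb7b encodes a zinc finger transcription factor known for its part in T cell lineage choice. How the allele was made, and in which cells it is lost, is not given in the sources used here. The titles speak of biological replicates while another label field counts pools, and that field also names liver and a different knockout, so the animals behind each array are unknown. The p-values then reflect only how these samples vary, which may be technical in part. Signals are log2 values, on which a difference of 1 is a doubling. They were compared between groups for 1 gene at a time, never between genes.

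The arrays had median signals of 2.63 to 2.83, and arrays of a group correlated at r = 0.970 to 0.985 over probe sets. Zbtb7b lay at 2.96 to 3.62 on the KO arrays and at 4.26 to 4.76 on the WT arrays. The brown fat gene Ucp1 lay at 11.55 to 12.95 on all 12 arrays, and the hepatocyte gene Alb at 1.20 to 2.75. At room temperature Ucp1 averaged 12.53 in WT and 11.73 in KO, and in the cold 12.89 and 12.78. The mean over 12 brown adipocyte markers was 9.42 to 9.70 in KO at room temperature against 10.14 to 10.23 in WT, and 10.43 to 10.66 on the cold arrays of both genotypes. Much of these gaps came from Dio2 and Elovl3. At room temperature Dio2 averaged 8.41 in WT and 4.86 in KO, and in the cold 11.69 and 11.55. The median difference of the 12 was -0.13 for KO minus WT at room temperature, and -0.14 for cold minus room temperature over both genotypes. In KO at room temperature 3 of the 12 were lower and 0 higher by the test given below, which 0.55 percent of all genes passed. The 9 of 20 erythroid markers that were measured averaged 2.16 to 2.48 per array, near the array medians; the globin genes were not among them.

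Heme is a porphyrin ring that holds iron, and cells build it in a chain of enzymes that begins and ends in mitochondria and runs through the cytosol in between. The first enzyme, 5-aminolevulinate synthase, sets the pace outside red cells, and the last, ferrochelatase, inserts the iron. Brown fat is packed with mitochondria whose respiratory complexes and cytochrome c carry heme, so the tissue needs both heme and iron. Iron enters most cells bound to transferrin through the transferrin receptor, Tfrc, and leaves through ferroportin, Slc40a1.

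Cold exposure lowered most of these genes. Over both genotypes, 8 of the 9 fell past the test after 4 h at 4 °C, all but Alas1, and 0 rose. Of all genes 27.2 percent were called in that comparison, 14.3 percent lower and 12.9 percent higher. Slc40a1 fell most, by 1.93 on the log2 scale (3.81-fold), followed by Alad (1.92-fold), Tfrc (1.78-fold), Urod (1.75-fold) and Cpox (1.64-fold). The genotype made no difference that passed the test for any of the 9. Calls were made with limma's moderated test, adjusted by Benjamini-Hochberg over all 22180 genes, at an adjusted p under 0.05.

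**Figure D1:**
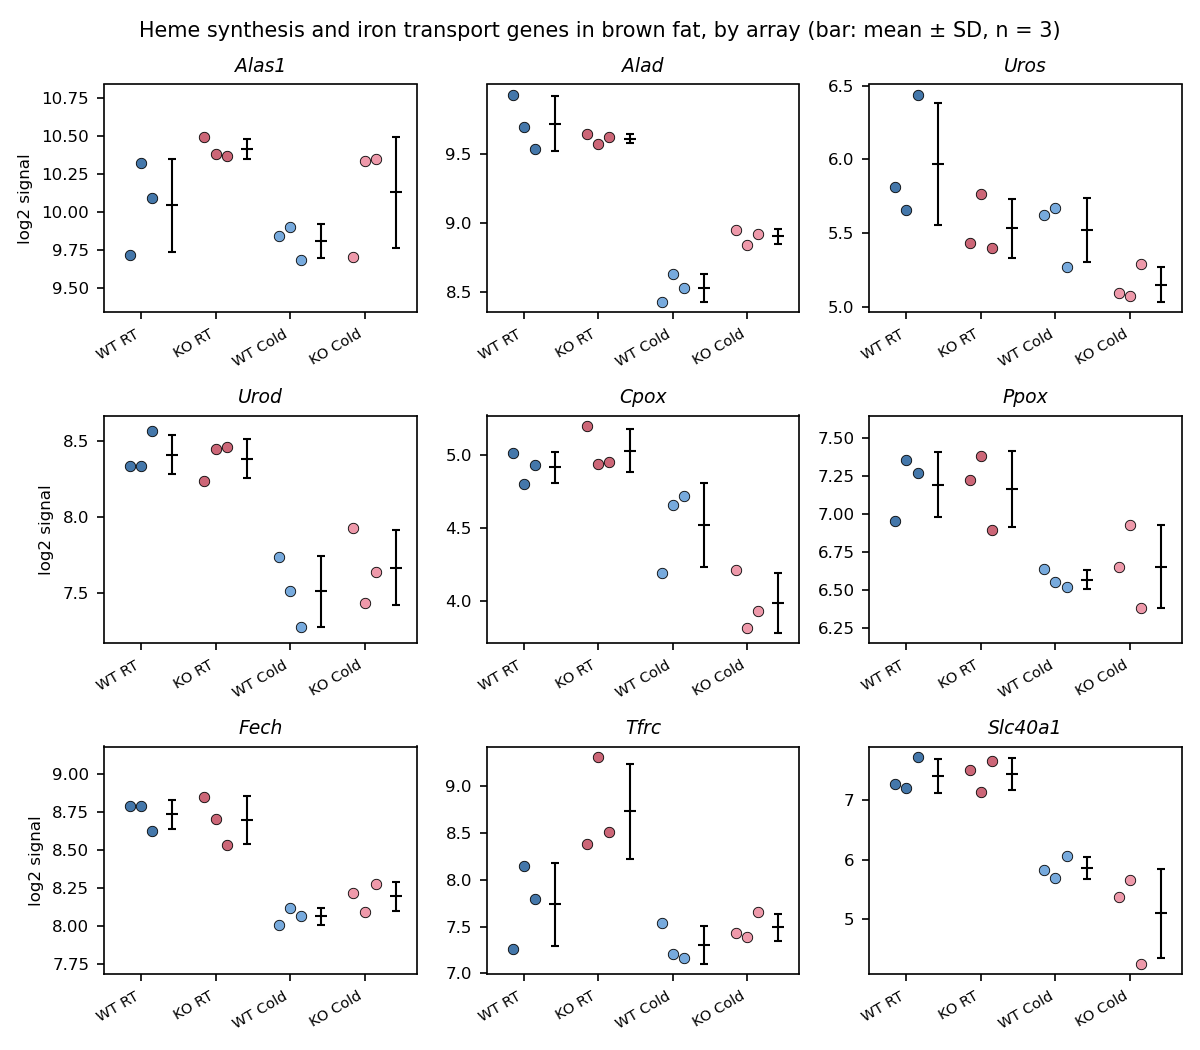
Log2 signal (vertical axis, own scale for each gene) of the 9 genes on each of the 12 arrays, in the 4 groups WT RT, KO RT, WT Cold and KO Cold; points are arrays and bars are the mean ± SD of 3 arrays. The 6 cold arrays lie below the 6 room temperature arrays for Alad, Urod, Cpox, Fech and Slc40a1. For Alas1 the cold and room temperature groups overlap in WT and not in KO.

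Taken in the order of the pathway, Alas1, which joins glycine to succinyl-CoA in the mitochondrion, was the 1 gene of the 9 that did not pass in any cold comparison. Its signal (probe set 17530653) at room temperature was 9.71, 10.32 and 10.09 (WT) and 10.49, 10.38 and 10.37 (KO). After cold exposure WT had 9.84, 9.90 and 9.68, and KO had 9.71, 10.33 and 10.35. The lowest array was a cold WT array and the highest a KO array at room temperature. The 6 cold arrays overlapped the 6 room temperature arrays, and the WT groups overlapped. In KO the 3 cold arrays lay below the 3 room temperature arrays, which held for 17.2 percent of all genes. The cold difference over both genotypes was -0.26 ± 0.14 (SE, 6 arrays against 6) with a 95% interval of -0.55 to 0.03 and an adjusted p of 0.196. A fall of up to 0.55 therefore lies within the interval.

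Alad, which joins a pair of aminolevulinate molecules into the ring's building block porphobilinogen, had the largest cold difference among the enzymes in WT. Its signal (probe set 17426206) at room temperature was 9.92, 9.69 and 9.53 (WT) and 9.64, 9.57 and 9.62 (KO). The cold WT arrays read 8.43, 8.63 and 8.53, and the cold KO arrays 8.95, 8.84 and 8.92. All 6 cold arrays lay below all 6 room temperature arrays, and within the cold the 3 KO arrays lay above the 3 WT arrays. The fall in WT was 1.18 ± 0.12 (SE, 3 arrays a group), which is 2.27-fold, with an adjusted p of 8.36e-05. In KO it was -0.70 ± 0.12, which is 1.63-fold, with an adjusted p of 0.00184.

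Urod, which trims carboxyl groups from the closed ring in the cytosol, followed the same course. Its signal (probe set 17428735) at room temperature was 8.34, 8.34 and 8.56 (WT) and 8.24, 8.45 and 8.47 (KO). Under cold exposure these became 7.74, 7.52 and 7.28 for WT and 7.93, 7.44 and 7.64 for KO. The 6 cold arrays lay below the 6 room temperature arrays, and the genotypes overlapped at both temperatures. The cold difference was -0.90 ± 0.16 in WT (adjusted p = 0.0022) and -0.72 ± 0.16 in KO (adjusted p = 0.00767).

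The bases just upstream of the transcription start are shown for the genes on which these results turn: Alad and Urod, which fell in both genotypes, Alas1, which did not pass, and Tfrc, taken up further on. RefSeq (GRCm38.p6) windows of 250 bases upstream were used for 7 of the 9 genes, 11 windows in all, and none for Fech or Slc40a1. For the 9 genes, any window on a chromosome that was left out was not used. The set of all windows kept that chromosome. Capitals mark, on either strand, the E-box CACGTG, the hypoxia response core ACGTG (which lies inside every E-box), the GC box GGGCGG and the NRF1 core GCGCATGCG, which in Alas1 is matched on both strands by overlapping bases. Alad start 1 is chr4:62520064-62520313 on the minus strand and start 2 is chr4:62519910-62520159 on the minus strand, so the windows overlap. Urod is chr4:116994414-116994663 on the minus strand, Alas1 start 2 is chr9:106247731-106247980 on the minus strand, and Tfrc start 2 is chr16:32608872-32609121 on the plus strand. Start 1 of Alas1, with 1 GC box and no NRF1 core, and start 1 of Tfrc, with none of these motifs, are not printed.
Alad start 1: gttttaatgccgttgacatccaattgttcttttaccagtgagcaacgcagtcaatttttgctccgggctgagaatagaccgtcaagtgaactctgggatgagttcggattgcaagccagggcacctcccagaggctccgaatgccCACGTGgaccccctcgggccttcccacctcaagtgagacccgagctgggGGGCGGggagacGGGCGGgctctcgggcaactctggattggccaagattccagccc
Alad start 2: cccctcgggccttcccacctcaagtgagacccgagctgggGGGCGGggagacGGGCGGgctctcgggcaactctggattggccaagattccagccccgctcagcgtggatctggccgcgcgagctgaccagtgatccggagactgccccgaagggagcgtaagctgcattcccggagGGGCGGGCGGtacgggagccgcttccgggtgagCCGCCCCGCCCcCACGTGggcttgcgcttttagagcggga
Urod: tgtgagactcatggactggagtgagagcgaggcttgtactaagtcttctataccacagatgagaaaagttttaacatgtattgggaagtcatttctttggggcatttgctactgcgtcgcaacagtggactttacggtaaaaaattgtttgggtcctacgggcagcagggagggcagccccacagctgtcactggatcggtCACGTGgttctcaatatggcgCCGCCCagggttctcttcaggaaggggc
Alas1 start 2: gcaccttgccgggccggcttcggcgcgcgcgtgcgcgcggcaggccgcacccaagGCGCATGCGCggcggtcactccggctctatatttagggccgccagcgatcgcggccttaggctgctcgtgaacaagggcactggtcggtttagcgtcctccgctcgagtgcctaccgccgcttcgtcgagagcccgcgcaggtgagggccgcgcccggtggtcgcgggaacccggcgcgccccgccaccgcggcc
Tfrc start 2: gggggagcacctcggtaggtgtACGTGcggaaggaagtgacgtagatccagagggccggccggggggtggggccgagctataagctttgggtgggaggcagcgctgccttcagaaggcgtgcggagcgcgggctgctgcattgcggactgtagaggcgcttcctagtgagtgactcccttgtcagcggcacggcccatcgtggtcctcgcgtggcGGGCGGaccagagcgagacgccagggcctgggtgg

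An E-box, the motif of basic helix-loop-helix factors such as those of the circadian clock, was present in 4 of the 11 windows: both of Alad, that of Urod and start 1 of Uros. Of all 32851 windows of that length, 6.02% held it. In Alad start 2 it lay 28 to 23 bases upstream of the start and in Urod 49 to 44. The 11 windows are not independent, since those of Alad overlap each other, as do those of Alas1 and those of Tfrc. The E-boxes of the Alad windows lay outside the bases that these windows share. The NRF1 core stood in 1 window, Alas1 start 2, at 195 to 186 bases upstream, against 1.45% of all windows. The ACGTG core was in 6 windows (16.6% of all) and the GC box in 6 (32.7% of all). The cyclic AMP response element TGACGTCA (1.55% of all windows) and the antioxidant response core TGACNNNGC (10.2%) were in 0 of the 11. These matches describe letters in the windows only.

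Uros, which closes the ring, was the least certain of the genes that passed. Its arrays ranged from 5.40 to 6.44 at room temperature and from 5.07 to 5.67 in the cold, so these ranges overlapped. The WT groups overlapped as well, while the 3 cold KO arrays lay below the 3 KO arrays at room temperature. Such a separation held for 17.2 percent of all genes. The difference over both genotypes was -0.42 ± 0.14 with an adjusted p of 0.0454. It passed in 3 of the 12 fits that each left out 1 array, those without WT RT replicate 1, WT RT replicate 2 or KO Cold replicate 3, with adjusted p up to 0.114 over the 12. The averaged count of 8 is thus 7 without any of the other 9 arrays.

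Cpox and Ppox carry out the oxidations that turn coproporphyrinogen into protoporphyrin in the mitochondrion. Cpox (mean signal 4.61, the dimmest of the 9) lay at 4.80 to 5.01 in WT and 4.94 to 5.20 in KO at room temperature. Cold WT arrays spanned 4.19 to 4.72 and cold KO arrays 3.81 to 4.21. All 6 cold arrays were below the 6 others, with the lowest in KO. The KO difference was -1.04 ± 0.16 (adjusted p = 8.87e-04), and the WT difference of -0.39 ± 0.16 did not pass (adjusted p = 0.132). The difference between these differences, the interaction, was -0.65 with an adjusted p of 0.365, so the genotypes were not shown to differ in their response.

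Ppox gave the reverse order of calls. Its arrays lay at 6.95 to 7.35 in WT and 6.89 to 7.38 in KO at room temperature, and at 6.52 to 6.63 and 6.38 to 6.92 in the cold. The WT groups did not overlap and the KO groups did. The difference was -0.63 ± 0.17 in WT (adjusted p = 0.0264) and -0.51 ± 0.17 in KO (adjusted p = 0.0576). The WT call was lost without WT RT replicate 2 or 3, or without any 1 of the 3 WT Cold arrays (adjusted p up to 0.0961). The interaction for Ppox was 0.11 with an adjusted p of 0.901.

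Fech, the ferrochelatase that completes heme and itself holds an iron-sulfur cluster, was narrow in spread. Its signal (probe set 17354995) at room temperature was 8.79, 8.79 and 8.62 (WT) and 8.85, 8.70 and 8.53 (KO). Cold WT arrays gave 8.01, 8.12 and 8.06, and cold KO arrays gave 8.22, 8.09 and 8.28. Every cold array lay below every room temperature array. The difference was -0.67 ± 0.12 in WT (adjusted p = 0.00235) and -0.50 ± 0.12 in KO (adjusted p = 0.0118). The KO call was lost without KO RT replicate 1 (adjusted p = 0.0516) and in a fit of the 6 KO arrays alone (adjusted p = 0.0642).

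The mean of the 7 enzymes on each array separated the temperatures. It lay at 7.75 to 7.92 on the room temperature arrays and at 7.15 to 7.29 on the cold arrays. Counted by genotype, 5 of the 9 genes fell in WT (Alad, Urod, Ppox, Fech and Slc40a1), and 0 rose, where 7.98 percent of all genes fell and 9.39 percent rose. In KO 6 fell (Alad, Urod, Cpox, Fech, Tfrc and Slc40a1), and 0 rose, where 10.8 percent of all genes fell and 8.34 percent rose. Brighter genes were called more often: of the 8475 genes whose mean signal was 5 or more, which include 8 of the 9, 14.4 percent fell in WT, 20.6 percent in KO and 25.9 percent over both. The median difference of the 9 was -0.63 in WT and -0.70 in KO, against -0.02 and 0.00 over all genes. For 5 of the 9 all cold arrays lay below all others, which held for 7.54 percent of all genes and 15.4 percent of the brighter ones.

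**Figure D2:**
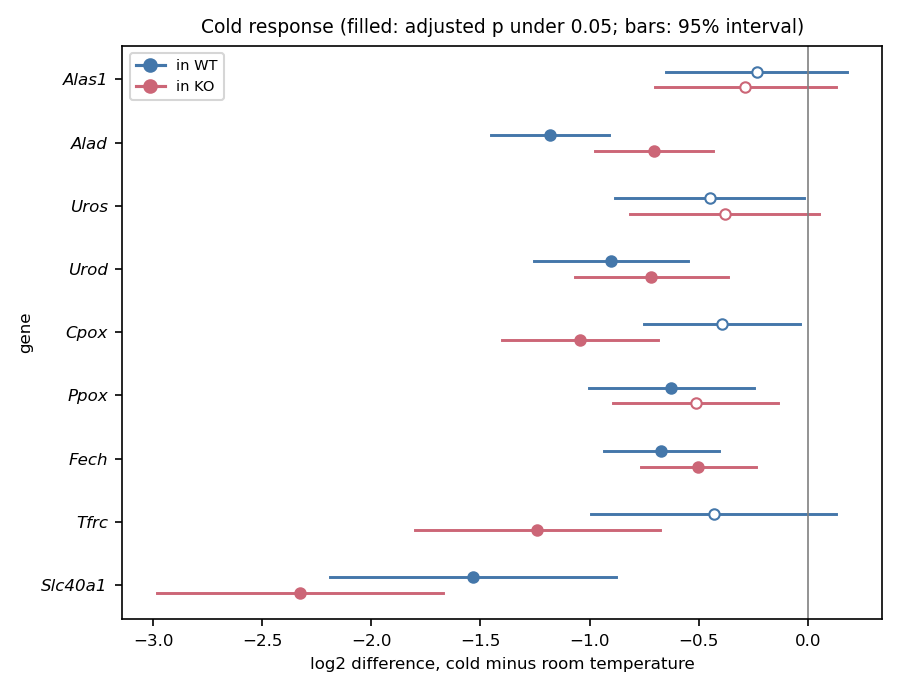
Difference in log2 signal, cold minus room temperature (horizontal axis), for each of the 9 genes (vertical axis) in WT (blue) and KO (red), with 95% intervals; filled points have an adjusted p under 0.05. All 18 points lie below 0, from -0.23 for Alas1 in WT to -2.33 for Slc40a1 in KO.

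Slc40a1, the ferroportin that carries iron out of cells, had the largest cold difference of the group. Its signal (probe set 17222777) at room temperature was 7.26, 7.20 and 7.72 (WT) and 7.49, 7.14 and 7.65 (KO). The cold values were 5.83, 5.70 and 6.05 for WT and 5.38, 5.66 and 4.26 for KO. The cold arrays all lay below the others, and KO Cold replicate 3 was the lowest. The difference was -1.53 ± 0.30 in WT, which is 2.89-fold, with an adjusted p of 0.00391, and -2.33 ± 0.30 in KO, which is 5.02-fold, with an adjusted p of 2.43e-04. Ordered from the lowest difference over both genotypes, it stood at place 50 of the 22180 genes. Without KO Cold replicate 3 the KO difference was -1.90.

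Macrophages also express ferroportin, so their markers are given beside it. The mean of 17 macrophage markers was 4.92 to 5.25 in WT and 5.62 to 5.77 in KO at room temperature, and 5.42 to 5.79 and 5.59 to 6.23 in the cold. In the cold 7 of the 17 rose and 0 fell in WT, where 9.39 percent of all genes rose and 7.98 percent fell. In KO 6 rose and 1 fell, where 8.34 percent of all genes rose and 10.8 percent fell. With this mean as a covariate the Slc40a1 difference in WT was -1.04 (adjusted p = 0.116) and over both genotypes -1.55 (adjusted p = 0.0027). In a whole tissue, fewer cells of a type and less RNA per cell cannot be told apart. On KO Cold replicate 3 the mean of 11 neutrophil markers was 3.75 against 1.82 to 2.25 on the other cold arrays, and the part of this in its low Slc40a1 signal was not tested.

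Tfrc, the receptor that brings transferrin-bound iron into the cell, passed in the cold in KO and had the largest genotype difference of the 9 at room temperature, which did not pass. Its signal (probe set 17324835) at room temperature was 7.27, 8.15 and 7.80 (WT) and 8.38, 9.31 and 8.51 (KO). With cold, WT stood at 7.54, 7.21 and 7.16 and KO at 7.43, 7.39 and 7.66. The KO arrays at room temperature were the 3 highest of the 12, and the other groups overlapped. Tfrc fell in KO by 1.24 ± 0.26 (2.36-fold, adjusted p = 0.0049). The WT difference was -0.43 ± 0.26 (adjusted p = 0.307). The interaction of -0.81 ± 0.36 had an unadjusted p of 0.0466 and an adjusted p of 0.468, so a genotype difference in the cold response was not shown.

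The cold comparisons in WT and KO share no arrays, while each comparison over both genotypes uses the arrays of the single ones and the genotype comparisons reuse the same 12 arrays. With the macrophage mean as a covariate, the calls for Urod (adjusted p = 0.0542), Ppox (adjusted p = 0.287) and Slc40a1 in WT were lost, and over both genotypes those for Tfrc (adjusted p = 0.0719), Ppox (adjusted p = 0.112) and Uros (adjusted p = 0.065). That mean itself lay higher in the cold on every WT array, so it and the temperature are only partly separable. Of the erythroid markers, 1 of 9 fell in WT, where 7.98 percent of all genes fell. In KO and over both 0 of the 9 changed, where 19.2 and 27.2 percent of all genes were called. Skeletal muscle markers ranged from 2.96 to 9.13 per array, with overlapping groups and 0 of 16 called in any of the cold comparisons.

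The comparison of KO with WT asks whether loss of Zbtb7b alters these genes at either temperature. None of the 9 passed the test at room temperature (0.55 percent of all genes did), in the cold (0.911 percent) or over both temperatures (1.63 percent). At an unadjusted p under 0.05 there were 2 genes at room temperature (Uros and Tfrc), 3 in the cold (Alad, Cpox and Slc40a1) and 3 over both (Alas1, Uros and Tfrc). Of all 22180 genes, 2528, 3197 and 3258 had such an unadjusted p in these comparisons, in that order. The interaction called 0 of the 9 and 0.0271 percent of all genes. Its unadjusted p was under 0.05 for 3 of the 9 (Alad, Cpox and Tfrc) and for 2324 of all genes.

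Tfrc had the largest room temperature difference, KO minus WT 1.00 ± 0.26 with a 95% interval of 0.44 to 1.56. Its unadjusted p was 0.00219 and its adjusted p 0.125, and the 3 KO arrays lay above the 3 WT arrays. Groups of this comparison failed to overlap for 17 percent of all genes. In the cold the difference was 0.19, with an interval of -0.37 to 0.75. Skeletal muscle markers averaged 9.13, 7.98 and 3.50 on the KO arrays at room temperature and 3.25, 6.89 and 2.96 on the WT arrays; with that mean as a covariate the Tfrc difference was 0.88 (adjusted p = 0.249).

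Alas1 was higher in KO by 0.37 at room temperature (adjusted p = 0.498, arrays not overlapping) and by 0.32 in the cold (adjusted p = 0.481, arrays overlapping). Alad in the cold was higher in KO by 0.37 ± 0.12, with an interval of 0.10 to 0.64 and an adjusted p of 0.196, and its arrays did not overlap. In that comparison 20.6 percent of all genes had groups that did not overlap. Slc40a1 in the cold was lower in KO by a difference of -0.76 ± 0.30 (adjusted p = 0.272), which was -0.34 without KO Cold replicate 3. Cpox in the cold had a difference of -0.54 ± 0.16 (adjusted p = 0.158), and its groups overlapped. Uros was at -0.44 at room temperature and -0.37 in the cold (adjusted p = 0.434 and 0.426). For Urod, Ppox and Fech the differences lay between -0.04 and 0.16, and their intervals together reached from -0.40 to 0.51.

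**Figure D3:**
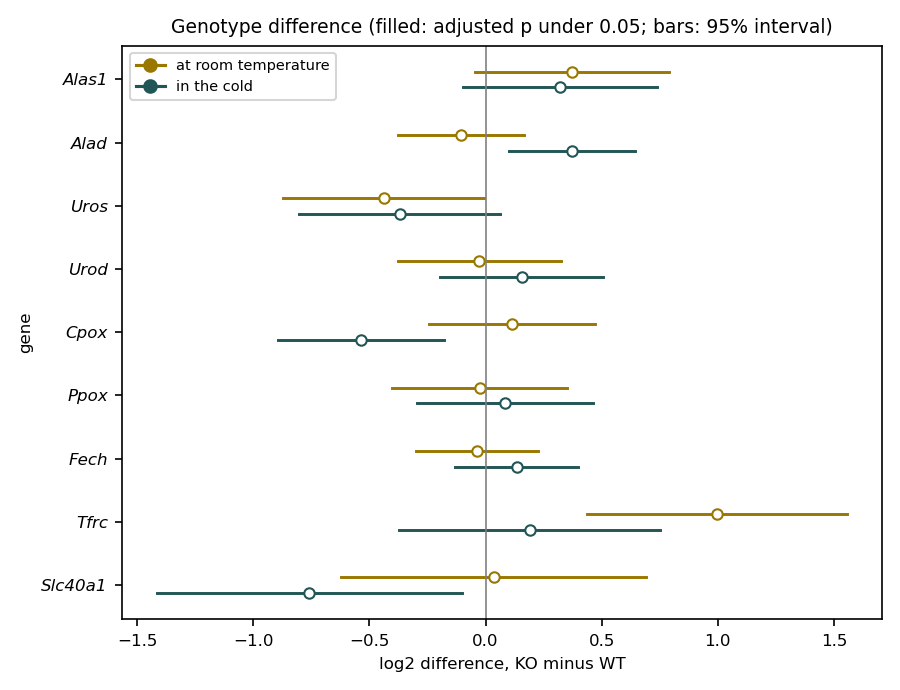
Difference in log2 signal, KO minus WT (horizontal axis), for each of the 9 genes (vertical axis) at room temperature (brown) and in the cold (dark green), with 95% intervals; filled points would have an adjusted p under 0.05. No point is filled, and the farthest from 0 is Tfrc at room temperature, at 1.00.

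Around these genes, the other heme genes moved both ways. Of 19 measured genes for heme transport, breakdown and related steps, 3 rose and 6 fell in WT, 2 rose and 6 fell in KO, and 3 rose and 11 fell over both genotypes. Their median difference over both was -0.37, against -0.01 over all genes. Of all genes 9.39 percent rose and 7.98 percent fell in WT, and 8.34 and 10.8 percent in KO. Over both genotypes these shares were 12.9 and 14.3 percent. Hmox1, the heme oxygenase that breaks heme down and releases its iron, rose 30.8-fold in WT and 15.9-fold in KO. Its signal went from 5.97, 4.47 and 5.27 to 10.20, 10.33 and 10.01 in WT, and from 5.16, 5.70 and 5.98 to 9.11, 10.65 and 9.04 in KO. The adjusted p was 2.72e-05 in WT and 7.74e-05 in KO, and the cold and room temperature arrays were far apart in both.

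Hpx, which encodes the heme-binding plasma protein hemopexin, rose by 2.83 in WT and 1.79 in KO on the log2 scale, from signals near the array medians. In the cold it was lower in KO, with a difference of -1.19 ± 0.20 (adjusted p = 0.017). That call was lost without any 1 of the 3 WT Cold arrays or without KO Cold replicate 3 (adjusted p up to 0.0762), with the 6 cold arrays alone (adjusted p = 0.0923) and with the macrophage mean as a covariate (adjusted p = 0.0657).

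Among the transporters, Abcb6 and Abcb10, membrane carriers linked to porphyrin and heme production, and Flvcr1, a heme exporter, fell in both genotypes. Abcb6 fell by 1.15 in WT (adjusted p = 0.00546) and 0.86 in KO (adjusted p = 0.0229). The KO call was lost without KO RT replicate 2, KO RT replicate 3 or KO Cold replicate 1 (adjusted p up to 0.0959), or with the 6 KO arrays alone (adjusted p = 0.102). Abcb10 fell by 0.80 in WT (adjusted p = 0.0257) and 0.94 in KO (adjusted p = 0.0104). The WT call was lost without any 1 of the 3 WT RT arrays or without WT Cold replicate 3 (adjusted p up to 0.105), or with the muscle mean as a covariate (adjusted p = 0.101).

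Flvcr1 fell by 0.92 in WT (adjusted p = 0.0018) and 0.61 in KO (adjusted p = 0.0185). The KO call was lost without KO RT replicate 1 or 3 or KO Cold replicate 2 or 3 (adjusted p up to 0.0544), and with the macrophage mean as a covariate both calls were lost (adjusted p = 0.0608 in WT and 0.0704 in KO). Fam210b fell in KO by 1.05 (adjusted p = 0.00156), with a WT difference of -0.29 (adjusted p = 0.33). Slc25a39, a mitochondrial glutathione carrier, had a KO minus WT difference in the cold of -0.62 (adjusted p = 0.0495), which passed in 1 of the 12 fits that left out an array, the one without KO Cold replicate 2.

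Of 28 other iron genes, 3 rose and 3 fell in WT, 5 rose and 6 fell in KO, and 5 rose and 8 fell over both, with a median of -0.08. Shares over all genes were 9.39 percent higher and 7.98 percent lower in WT, and 8.34 and 10.8 percent in KO. Over both they were 12.9 and 14.3 percent. Slc39a14, a metal importer, rose 3.49-fold in WT and 4.14-fold in KO (adjusted p = 5.66e-05 and 2.01e-05). Ncoa4, the receptor that takes ferritin to the lysosome, rose 1.55-fold in WT and 1.99-fold in KO (adjusted p = 0.0119 and 6.56e-04). Aco1, the cytosolic aconitase that acts as an iron regulatory protein when it lacks its cluster, fell 2.43-fold and 2.20-fold (adjusted p = 3.30e-04 and 6.08e-04). Steap3, the endosomal ferrireductase, fell by 0.89 and 0.98 on the log2 scale (adjusted p = 0.00104 and 4.64e-04).

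The ferritin and iron regulatory genes Fth1 and Ireb2 did not pass in either genotype. Fth1, the ferritin heavy chain, had differences of -0.18 in WT and -0.16 in KO (adjusted p = 0.32 and 0.394). Ireb2, the other iron regulatory protein, had adjusted p of 0.45 and 0.202. Slc11a2, the transporter that moves iron out of endosomes, fell in KO by 0.88 (adjusted p = 0.00667), with a WT difference of -0.10 (adjusted p = 0.806).

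**Figure D4:**
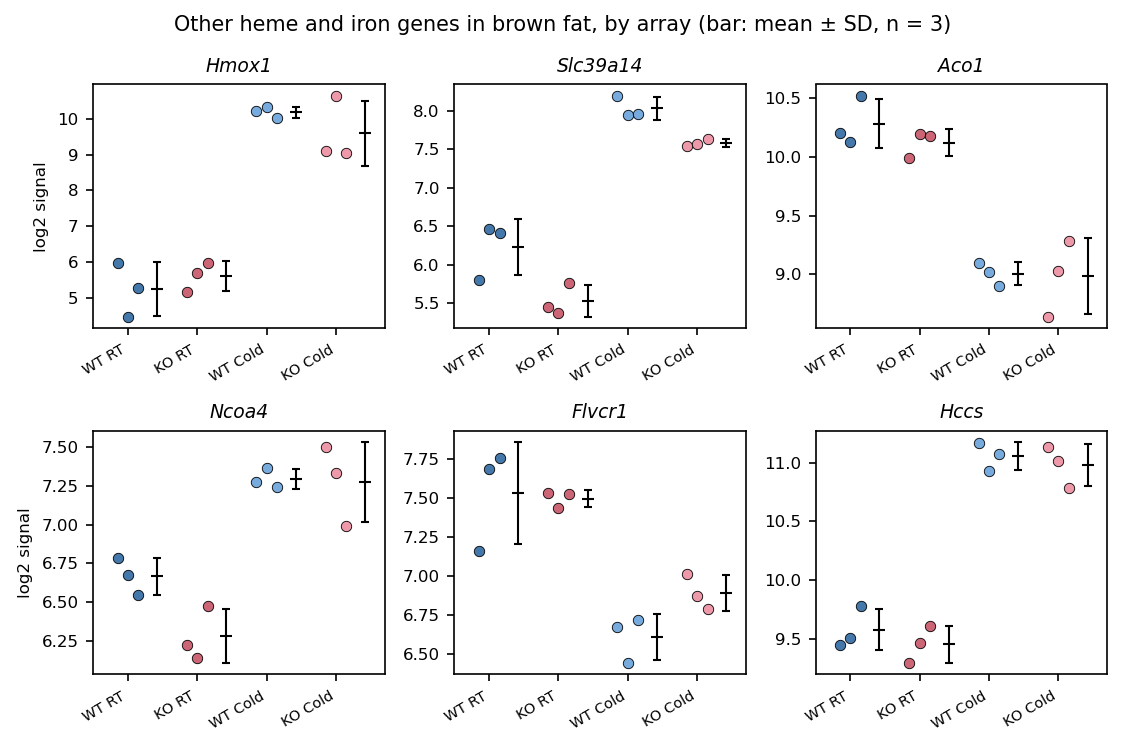
Log2 signal (vertical axis, own scale for each gene) of 6 other heme and iron genes on each of the 12 arrays, in the 4 groups; points are arrays and bars are the mean ± SD of 3 arrays. Hmox1, Slc39a14, Ncoa4 and Hccs are higher in the cold in both genotypes, and Aco1 and Flvcr1 are lower.

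Cells also use iron in iron-sulfur clusters. Of 15 genes that build them, 1 rose and 3 fell in WT, 1 rose and 5 fell in KO, and 1 rose and 6 fell over both. The shares of all genes that rose and fell were 9.39 and 7.98 percent in WT. In KO they were 8.34 and 10.8 percent, and over both 12.9 and 14.3 percent. Fdx1, a ferredoxin, rose by 1.16 in WT and 0.84 in KO (adjusted p = 0.00156 and 0.00961). Abcb8, a mitochondrial transporter, fell by 0.93 and 0.74 (adjusted p = 0.00111 and 0.00408). Isca2, an assembly factor, fell by 0.59 and 0.66 (adjusted p = 0.0115 and 0.00532), and its WT call was lost without WT Cold replicate 3 (adjusted p = 0.0563).

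A further list of 11 genes was mostly of mitochondrial proteins that carry heme, or attach and alter it, and also held Cat and Cyb5r3. Of the 11, 2 rose and 1 fell in WT, and 2 rose and 3 fell both in KO and over both genotypes. Among all genes 9.39 percent rose and 7.98 percent fell in WT, and 8.34 and 10.8 percent in KO. Over both genotypes 12.9 percent rose and 14.3 percent fell. The genes of the 11 that rose in both genotypes were Hccs and Cox10. Hccs, which attaches heme to cytochrome c, rose 2.79-fold in WT and 2.87-fold in KO (adjusted p = 5.20e-05 and 3.29e-05). Cox10, which begins the making of heme A for cytochrome oxidase, rose 1.60-fold and 2.32-fold (adjusted p = 0.00438 and 9.47e-05). Cox15, which acts after Cox10 in making heme A, went the other way: it fell in KO by 0.52 (adjusted p = 0.0178), with a WT difference of -0.27 (adjusted p = 0.212). Its KO call was lost without KO RT replicate 2, KO RT replicate 3 or KO Cold replicate 1 (adjusted p up to 0.0631), or with the 6 KO arrays alone (adjusted p = 0.0695). Suox, the heme enzyme sulfite oxidase, fell 1.49-fold and 1.55-fold (adjusted p = 0.00727 and 0.00342), and its WT call was lost with the macrophage mean as a covariate (adjusted p = 0.0736).

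The genes whose signals ran most like each of the 9 were listed by Pearson's r over the 12 arrays, among genes whose mean signal was 5 or more. These values are a description: the arrays share the temperature groups, which sets much of each pooled r. For Alas1 they were Sorcs2 (r = 0.947), Nol3 (0.915) and Usp22 (0.892). Over the 6 room temperature arrays Sorcs2 had r = 0.991 and over the 6 cold arrays 0.895. It was picked by its r over these same arrays, so the split adds no separate support. For Alad the nearest were Sdhaf1 (0.988), Tmem131l (0.977) and Aoc3 (0.976). Within room temperature and cold, Sdhaf1 had 0.891 and 0.957, Tmem131l 0.328 and 0.926, and Aoc3 0.545 and 0.883. For Tfrc they were Nupr1l (0.942), Nqo2 (0.910) and Hsd11b1 (0.910), and the r of Nupr1l was 0.981 at room temperature and 0.183 in the cold. For Slc40a1 they were Tjp1 (0.982), Dipk2b (0.977) and Cep192 (0.973), with Tjp1 at 0.677 and 0.945 within the temperatures. The nearest to Urod was Mtm1 (0.968), to Fech Nfic (0.985), to Cpox Rgs3 (0.965), to Ppox Slc25a40 (0.934) and to Uros Tmlhe (0.943).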

How the data were processed

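Gene expression was measured in 12 brown fat RNA samples, 3 in each of 4 groups taken from the titles, genotypes and temperatures in the labels. The authors deposited log2 signals; per the submitters' processing notes the tools named are RMA, oligo and limma, without versions. RMA brings arrays to a common distribution, so differences are relative to the other genes. No header states the scale, which was inferred from the range of the values. The scanner images were not used here, and for arrays their number limits the precision.

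Of 41345 probe sets, 23521 carried 1 symbol in the platform annotation, 1814 several and 16010 none. For the 1082 genes with several, the probe set with the highest mean signal was used. This gave 22180 genes, and dim genes were not removed. Each of the 9 genes had 1 probe set. In R 4.3.3 with limma 3.58.1, the 12 arrays were fitted together with a mean for each group and eBayes, and 7 comparisons were drawn, two-sided, with Benjamini-Hochberg adjustment over all genes. Folds are given only where both group means are at least 4. On simulated data for the cold comparison in WT, 64 of 100 genes with a simulated log2 change of 1, and 97 of 100 with a change of 2, were recovered with 8 false calls among 22180 genes. In the other cold comparisons it recovered 71 and 96 (KO, 10 false calls) and 86 and 99 (both, 6 false calls).

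The 9 genes, the pathway and marker lists and the settings were chosen with earlier results of these data known. The text names the 9 genes, up to 4 called genes with the smallest p per pathway list and comparison, a few set iron and heme genes, and the 3 genes most like each member, leaving out predicted genes, clones and receptors of smell. The settings tried were other probe set rules, a signal minimum, cyclic loess, median centring, array weights, a trended robust spread, a replicate block, the 6 arrays of a comparison alone, muscle or macrophage list means as covariates, and 12 fits that each left out 1 array. Promoter windows came from RefSeq, and the numbers of windows holding each motif were counted on both strands.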

Additional observations from a re-analysis of the deposited data

How the results depend on the processing

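All values of the 9 genes that passed kept their direction under the 11 settings and the 12 fits that left out 1 array; over all comparisons of the 9, 24 lost a call and 6 gained one, while 0 called values reversed. With 1 array left out, the genes called ranged from 4 to 5 of 9 for the cold in WT, 5 to 7 in KO and 7 to 8 over both, and from 0 to 0 for the genotype comparisons and the interaction. The macrophage list mean as a covariate left 2 of 9 in WT and 5 of 9 over both genotypes. Among the other named genes 151 calls were lost and 19 gained, and Lcn2, cold over both genotypes, went from 1.17 to -0.00870 with the macrophage mean; the cause was not tested. Median centring moved the median of all genes in the KO cold comparison by -0.12 and the share of called genes that fell from 56.5% to 70.6%; over both genotypes it went from 52.5% to 64.0%. In the genotype comparison in the cold it went from 60.4% to 68.3%, and to 49.0% with cyclic loess. Called members were all lower under each scaling. Replicate numbers did not pair the samples: of 18 same-numbered pairs 6 correlated above 0.1 (r from -0.54 to 0.45), and 4 of 12 arrays correlated best with their own number. With the replicate number as a block, 5 of 9 were called in WT, 7 in KO (Ppox passed, adjusted p = 0.0467) and 7 over both (Uros did not, adjusted p = 0.0707), and 0 by genotype. Cpox, the dimmest of the 9, is the gene most limited by its signal, and it is not tested under the minimum signal of 5.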

Other observations

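Regulators known to act on Alas1 elsewhere moved in both directions in the cold, while Alas1 itself did not pass. Of 18 such genes, 5 rose and 5 fell in WT, 4 rose and 4 fell in KO, and 6 rose and 6 fell over both genotypes, with a median difference of -0.03. Beside these counts, 9.39 percent of all genes rose and 7.98 percent fell in WT, and 8.34 and 10.8 percent in KO. Over both genotypes 12.9 and 14.3 percent did. Ppargc1a, the coactivator that induces Alas1 in fasting liver, rose from a mean log2 signal of 9.22 to 11.54 in WT and from 9.08 to 12.08 in KO (limma, adjusted p = 1.12e-06 and 9.00e-08). Npas2, a clock factor that binds E-boxes, rose by 2.31 in WT and 2.19 in KO on the log2 scale (adjusted p = 3.60e-05 and 3.63e-05). The clock output factors Dbp, Hlf and Tef fell in both genotypes: Dbp 3.90-fold in WT and 5.52-fold in KO, Hlf 2.03-fold and 1.74-fold, and Tef 1.67-fold and 2.64-fold. The largest adjusted p among these 6 values was 0.00339, for Hlf in KO. With the macrophage mean as a covariate the Tef call in WT was lost (adjusted p = 0.0618). The time of day at which tissue was taken is not given in the sources used here, and its part in these values was not tested.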
